A study of Mus musculus with 15 samples.

Results

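The nuclear-encoded subunits of respiratory complexes II, III, IV and V and cytochrome c were examined in gastrocnemius, a calf muscle of mainly fast fibres, from mice lacking Cpt1b in skeletal muscle. Members were the rows of the deposited table of raw tag counts whose symbol is Sdha, Sdhb, Sdhc, Sdhd, Cyc1 or Cycs or begins with Uqcr, Cox4i, Cox5, Cox6, Cox7, Cox8 or Atp5. The rule found 43 of the 13602 genes in the table: 4 of complex II, 9 of complex III, cytochrome c (Cycs), 12 of complex IV and 17 of complex V. All 43 passed the low-count filter, with mean counts between 46.2 tags per library (Cox4i2) and 196415 (Cox4i1). The groups were 7 male knockout mice, labelled as Cpt1b skeletal muscle knockout, and 8 male mice labelled as wild type with the floxed gene. Titles and protocol describe chow, given for 12 to 14 weeks, whereas the diet field reads 45% HFD for all 15 samples. The sources used here name neither the promoter that drove Cre in muscle nor the part of Cpt1b that was removed, and give no ages. Each library counts short tags taken near the 3′ end of transcripts (SOLiD SAGE), so a count does not scale with transcript length. The stated numbers of mice equal the numbers of libraries, and a library was read as 1 mouse.

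Complex II, succinate dehydrogenase, passes electrons from succinate to ubiquinone, and complex III passes them from ubiquinone to cytochrome c. Complex IV, cytochrome c oxidase, hands them to oxygen, and complex V, the ATP synthase, uses the proton gradient so built to make ATP. Several small subunits of complex IV exist as a form of heart and skeletal muscle and a form found in most tissues. Cpt1b, the muscle carnitine palmitoyltransferase, admits long-chain fatty acids to the mitochondrion upstream of this chain. The catalytic subunits of complex IV, cytochrome b and the a subunit of complex V are encoded by mitochondrial DNA and were not analysed here.

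Libraries held between 8334436 tags (control replicate 1) and 19397255 tags (knockout replicate 4). Levels are given in CPM (counts scaled to the TMM-adjusted library total). Throughout, ± gives the SD over 7 knockout or 8 control libraries for levels and ratios, and the SE for fold changes and differences. Cpt1b stood at 3.79 ± 1.64 CPM in knockouts (SD, n = 7) and 7.64 ± 3.17 CPM in controls (SD, n = 8). Its log2 fold change was -1.03 ± 0.31 (SE, edgeR adjusted p = 0.103), and the exact permutation test on log2 CPM gave a two-sided p of 0.00389 over 6435 splits. The counted tag is near the 3′ end of Cpt1b and the position of the deletion is not stated, so its level alone is no check of the genotype labels. Knockout replicate 4 and control replicate 7, the deepest library of each group, stood apart at the high end of the first principal component of all tested genes. Their scores were 76.2 and 51.2, with 29.7 the next highest. At the low end control replicates 1 and 2 scored -43 and -37.5. Below, the libraries that stood apart are knockout replicate 4 and control replicate 7. For many of the members with an extreme value in these 2, results without them are given too. The 10 markers of skeletal muscle fibres fixed for this check were all detected, at summed levels of 126082 to 182575 CPM in knockouts and 135734 to 195310 CPM in controls.

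Most respiratory subunits had slightly more tags in knockout muscle, and 4 of them passed the test: the iron-sulfur proteins Sdhb of complex II and Uqcrfs1 of complex III, the membrane anchor Sdhd and the core protein Uqcrc2. Of the 43 members 38 had a positive log2 fold change, against 50.6% of all 11062 genes tested, and their median was 0.37, against 0.00 for all genes. The 4 called higher (edgeR adjusted p under 0.05 over all genes tested) were 9.30% of the members, where 1.67% of all genes were called higher. None was called lower, by edgeR or by DESeq2 or voom, where edgeR called 0.497% of all genes lower and 2.17% in either direction. Among the 366 genes with at least the members' median count, 3.28% were called higher, 47.5% had a positive log2 fold change and the median was -0.03. At an unadjusted p under 0.05, 20 members were higher and 0 were lower, with 7.65% of all genes higher and 5.92% lower at that level. Together the members took 6.05% to 7.88% of all tags in knockout libraries (6.96% ± 0.68) and 4.91% to 5.80% in control libraries (5.47% ± 0.33), without overlap. In TMM-scaled CPM the groups did overlap, at 55196 to 78732 CPM summed over members in knockouts and 49288 to 61814 CPM in controls, with knockout replicates 4 and 5 each below 4 of the 8 controls. In bulk muscle, a change in the share of a cell type and a change in RNA per cell cannot be told apart.

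**Figure D1:**
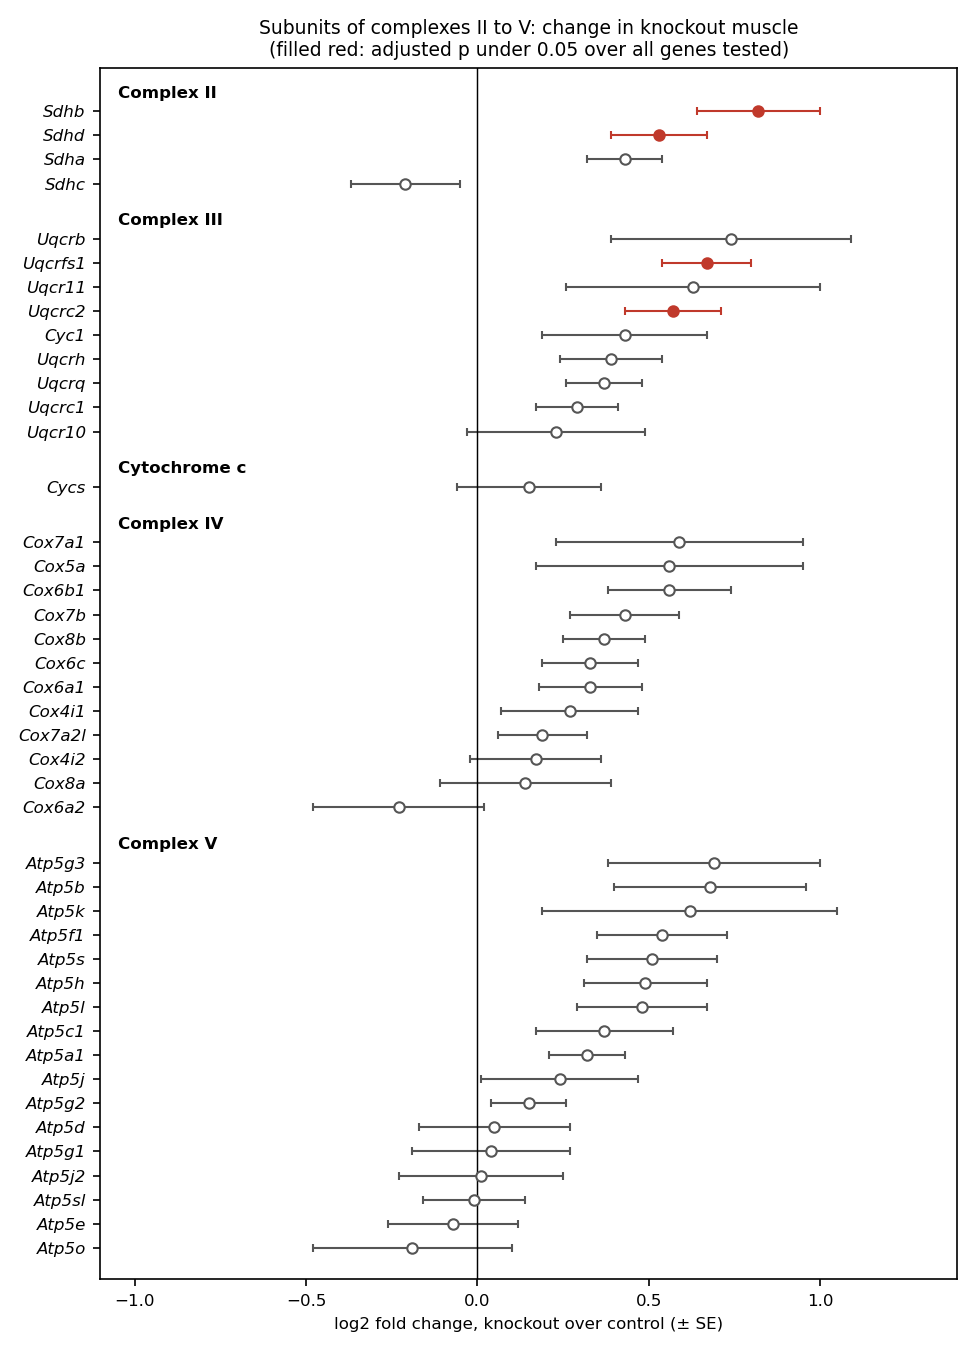
Log2 fold change of each of the 43 members, knockout over control, with its SE as the horizontal bar, grouped by complex. Filled red points mark the 4 members that passed (Sdhb 0.82, Uqcrfs1 0.67, Uqcrc2 0.57 and Sdhd 0.53), and 38 of 43 points lie to the right of 0.

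In complex II, 3 of the 4 subunits were higher at an unadjusted p under 0.05, and Sdhb and Sdhd passed over all genes. Sdhb carries the iron-sulfur clusters that take electrons from the flavin. It ran from 71.5 through a median of 112 to 136 CPM in knockouts, and from 38.4 through 56.4 to 96.6 CPM in controls. The groups overlapped in the lowest knockouts, replicates 6 and 1, and the highest controls, replicates 7 and 3. The means were 109 ± 21.6 and 61.7 ± 18.6 CPM in knockouts and controls, a log2 fold change of 0.82 ± 0.18 (edgeR adjusted p = 0.0199). The call was lost without knockout replicate 2 (adjusted p = 0.0537) or knockout replicate 5 (0.0504) and with scaling by library size alone (0.0535). It was also lost with the replicate number as a block over replicates 1 to 7 (edgeR adjusted p = 0.0581).

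Sdhd, which with Sdhc anchors the enzyme in the inner membrane, had a lowest, median and highest level of 293, 418 and 495 CPM in knockouts, against 225, 279 and 323 CPM in controls. Knockout replicate 6 alone fell within the control range. The log2 fold change of 0.53 ± 0.14 lay close to the threshold (edgeR adjusted p = 0.0483). Sdhd passed by DESeq2 (adjusted p = 0.00684) and with library size alone (edgeR 0.0473). It did not pass with RLE scaling (edgeR 0.0551), without the low-count filter (0.0593) or by voom (adjusted p = 0.0565). With the replicate number as a block over replicates 1 to 7 it did not pass either (edgeR 0.306). Leaving out any single library except knockout replicate 6 (0.0226) or control replicate 7 (0.0295) lost the call, with adjusted p between 0.0515 and 0.15.

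Sdha, the flavoprotein that oxidizes succinate and the most abundant gene of the complex, ran from 568.3 through 682 to 786 CPM in knockouts and from 438 through 492.9 to 556 CPM in controls. Every knockout library stood above every control library, as for 0.967% of all genes. The log2 fold change of 0.43 ± 0.11 was just short over all genes (edgeR adjusted p = 0.0527). It passed by DESeq2 (adjusted p = 0.00119), without control replicate 7 (edgeR 0.0300) and without knockout replicate 6 (0.0433). The other anchor, Sdhc, did not share this direction. Its levels were 168, 219 and 252 CPM in knockouts, within those of controls (167, 240 and 342 CPM), and its log2 fold change was -0.21 ± 0.16 (edgeR adjusted p = 0.576).

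The promoters of the 3 complex II genes with more tags in knockouts are shown as entered in RefSeq for GRCm38.p6. Each has 250 bases before and 50 after the annotated start. Sdhc, the other gene of the complex, had no promoter in this source and could not be set beside them. Capitals mark matches on either strand to fixed letters associated with factors that drive respiratory genes: GCGCA, any base and GCGC for NRF1, CCGGAAG for GABP and TNAAGGTCA for the estrogen-related receptors (ERR). They lie at chr13:74350191-74350490 on the minus strand (Sdha), chr4:140961021-140961320 on the plus strand (Sdhb) and chr9:50603800-50604099 on the minus strand (Sdhd).
Sdha: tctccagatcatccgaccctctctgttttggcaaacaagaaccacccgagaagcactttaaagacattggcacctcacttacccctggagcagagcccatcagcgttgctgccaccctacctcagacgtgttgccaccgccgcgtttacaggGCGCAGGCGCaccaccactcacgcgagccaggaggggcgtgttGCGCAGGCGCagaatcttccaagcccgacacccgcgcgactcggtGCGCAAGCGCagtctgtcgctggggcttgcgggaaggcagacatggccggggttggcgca
Sdhb: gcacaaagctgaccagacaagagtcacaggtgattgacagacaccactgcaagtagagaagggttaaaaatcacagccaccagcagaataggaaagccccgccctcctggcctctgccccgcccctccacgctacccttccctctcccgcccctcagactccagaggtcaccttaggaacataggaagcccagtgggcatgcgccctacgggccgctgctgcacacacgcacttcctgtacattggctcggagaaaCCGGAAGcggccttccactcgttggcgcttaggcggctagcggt
Sdhd: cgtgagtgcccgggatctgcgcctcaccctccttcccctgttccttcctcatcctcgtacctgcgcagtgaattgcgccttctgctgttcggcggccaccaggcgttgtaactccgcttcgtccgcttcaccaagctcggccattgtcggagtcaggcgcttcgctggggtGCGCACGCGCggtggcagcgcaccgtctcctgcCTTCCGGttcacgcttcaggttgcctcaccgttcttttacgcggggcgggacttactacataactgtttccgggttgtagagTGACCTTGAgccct
The Sdha promoter held 3 NRF1 matches, from -98 to -89, from -55 to -46 and from -10 to -1, counting the first transcribed base as 1. Sdhb held a GABP match from 7 to 13. Sdhd held an NRF1 match from -79 to -70, a GABP match from -46 to -40 and an ERR match from 37 to 45. RefSeq promoters of this table matched 30 of the 43 members by symbol. NRF1 letters occurred in 10 of the 30 (33.3%), against 5.19% of 27025 genes with a promoter, and GABP letters in 12 (40.0%), against 9.93%. ERR letters occurred in the promoters of Sdhd and the c subunit gene Atp5g3 (6.7% of the 30, against 1.43% of genes), and a PPAR half-site pair (AGGNCA, any base and AGGTCA), whose end shares letters with the ERR motif, in none of the 30 (0.11% of genes). The NRF1 letters were in 6 of 13 promoters of complex V, 1 of 8 of complex IV, 1 of 5 of complex III and 2 of 3 of complex II. Of the called members of complex III, Uqcrfs1 had a promoter without any of these letters, and Uqcrc2 had no promoter in this source. These are letter matches and not measured binding, and their relation to the fold changes was not tested. The 27025 genes were not limited to those tested in this muscle, so the shares were not matched for expression.

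All 9 genes of complex III had a positive log2 fold change, between 0.23 (Uqcr10) and 0.74 (Uqcrb). Uqcrfs1 encodes the Rieske protein, whose iron-sulfur cluster takes the first electron from ubiquinol, and had the smallest p of all members. Its lowest, median and highest levels were 207, 275 and 346 CPM in knockouts and 132, 182 and 208 CPM in controls. Knockout replicate 6 lay just under control replicate 7, and all other knockouts lay above all controls. The log2 fold change was 0.67 ± 0.13 (edgeR adjusted p = 0.00784). It also passed with RLE scaling, with library size alone, without the filter, by DESeq2 and by voom. Without any single library its adjusted p was at most 0.0274. With the replicate number as a block over replicates 1 to 7 it did not pass (edgeR adjusted p = 0.122).

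Uqcrc2, a core protein on the matrix side of the complex, had a lowest, median and highest level of 189, 231 and 311 CPM in knockouts, against 117, 167 and 192 CPM in controls. Knockout replicate 6, at the bottom of its group, again fell below control replicate 7. The log2 fold change was 0.57 ± 0.14 (edgeR adjusted p = 0.0318). No full tag could be predicted for its transcript (see complex IV below), so its count may not reflect the transcript's level. The call was lost without knockout replicate 2 (adjusted p = 0.102), 3 (0.0687) or 7 (0.0593). It was lost too without control replicate 1 (0.0640), 2 (0.0703), 4 (0.0706), 5 (0.0507) or 6 (0.0589). The same held with the replicate number as a block over replicates 1 to 7 (edgeR adjusted p = 0.178). Its partner Uqcrc1, the most abundant gene of complex III, stood at 1534 ± 262 CPM in knockouts and 1253 ± 117 CPM in controls, a log2 fold change of 0.29 ± 0.12 that did not pass (edgeR adjusted p = 0.305).

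Cyc1, the cytochrome c1 that passes electrons on to cytochrome c, averaged 524 ± 206 CPM in knockouts, with knockout replicate 1 lowest at 209 CPM and knockout replicate 4 highest at 864 CPM, and 388 ± 112 CPM in controls, with control replicate 7 highest at 620 CPM. Its log2 fold change of 0.43 ± 0.24 (edgeR adjusted p = 0.441) was 0.27 without knockout replicate 4, 0.56 without control replicate 7 and 0.39 without both. Uqcrb, a small ubiquinone-binding subunit, had the largest fold change of the complex, 0.74 ± 0.35, and did not pass (edgeR adjusted p = 0.358). Its levels were 36.5, 57.6 and 197 CPM in knockouts and 22.5, 46.7 and 102 CPM in controls, each maximum being the library that stood apart. Without knockout replicate 4 the log2 value was 0.34, without control replicate 7 it was 1.00, and without both it was 0.59 (edgeR adjusted p = 0.714, 0.0794 and 0.162). Uqcr11, another small subunit, ran from 312 through 488 to 1397 CPM in knockouts and from 209 through 265 to 985 CPM in controls, again with both maxima in those libraries (log2 0.63 ± 0.37, edgeR adjusted p = 0.471). Its log2 value was 0.24 without knockout replicate 4, 1.03 without control replicate 7 and 0.62 without both. Uqcr10, a small subunit near cytochrome c1, was lowest in abundance and change (log2 0.23 ± 0.26). The log2 value of Uqcr10 was 0.35 without knockout replicate 4, 0.12 without control replicate 7 and 0.22 without both. Uqcrq, another small subunit, singled out after its values were seen, ran from 732 to 957 CPM in knockouts, above all controls (511 to 715 CPM), and did not pass by edgeR (log2 0.37 ± 0.11, adjusted p = 0.0966). Sdha and Uqcrq were the 2 members without overlap between the groups, against 107 of all 11062 genes with every knockout above every control.

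**Figure D2:**
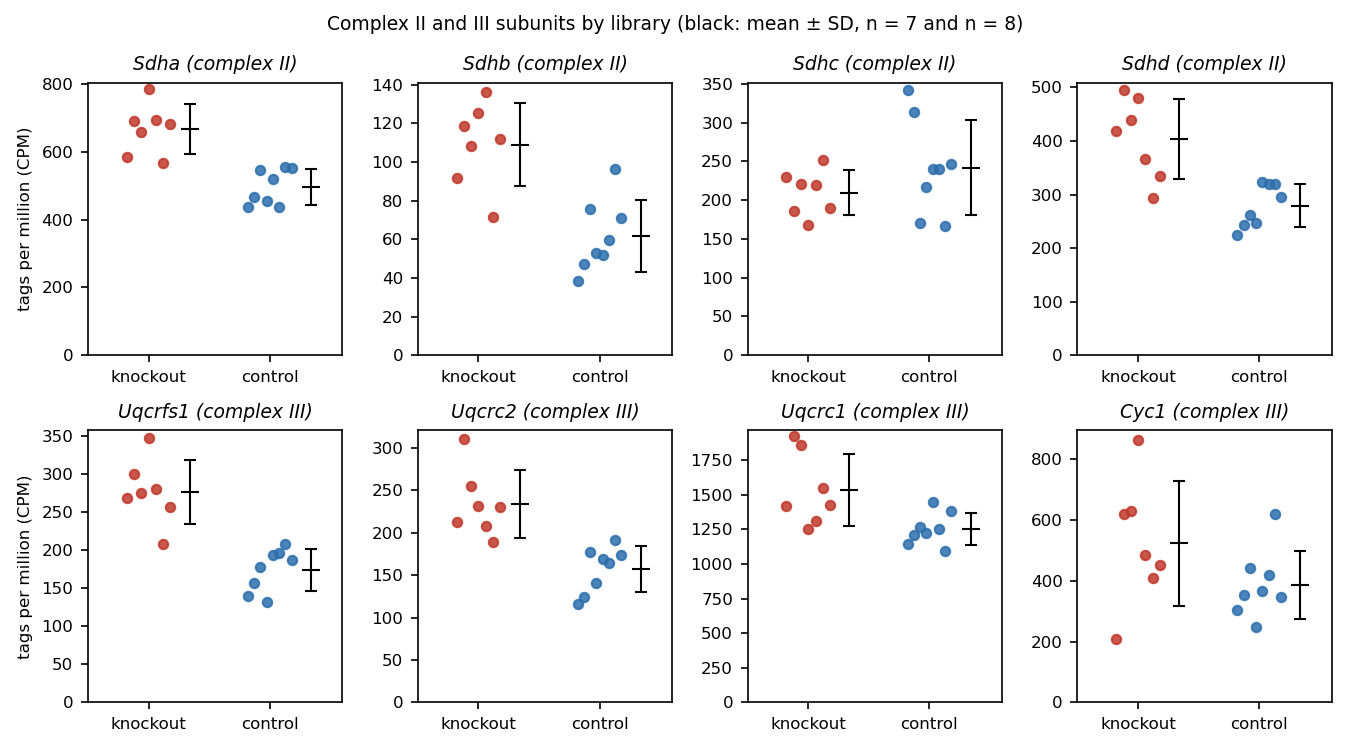
CPM of 8 genes of complexes II and III in each library, knockouts in red at the left and controls in blue at the right of each panel, with the mean ± SD in black. Sdha shows no overlap (568.3 to 786 against 438 to 556 CPM), and Sdhc shows full overlap (168 to 252 against 167 to 342 CPM).

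Cycs, the soluble carrier between complexes III and IV, was the second most abundant member, and it did not differ beyond the spread of the libraries. Its lowest, median and highest levels were 4859, 9896 and 11324 CPM in knockouts, against 4367, 7405 and 9772 CPM in controls (log2 0.15 ± 0.21, edgeR adjusted p = 0.749). Knockout replicates 1, 2, 3 and 6 were above all controls, while knockout replicates 4, 5 and 7 lay below the control mean, with control replicate 7 the lowest library of all. The log2 value was 0.25 without knockout replicate 4, 0.06 without control replicate 7 and 0.15 without both.

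In complex IV no subunit passed, although 11 of 12 had a positive log2 fold change (median 0.33) and 4 were higher at an unadjusted p under 0.05. The tags predicted for its tissue isoforms differ in sequence within the Cox6a and Cox4i pairs. For the Cox8 pair only the tag of Cox8a could be predicted in full. Whether these predicted tags were the ones counted is not given in the sources used here. Each predicted tag is the stretch of 27 bases beginning at the CATG nearest the 3′ end of the principal GENCODE M21 transcript. CATG, the usual anchoring site of SAGE, is in capitals. The labels do not name the enzyme.
Cox6a2: CATGgtggaaggggctgggcaggctct
Cox6a1: CATGtgaacccacttccgaccggctat
Cox8a: CATGtattggctctgcttggtggggtc
Cox7a1: CATGacgctgactctggggggcactgc
Cox4i2: CATGaagagcaaccccatacagggcct
Cox4i1: CATGctaataaaagaccagtttacgtg
None of these 6 tags occurred at a CATG in the transcripts of another gene. The last CATG of the Cox8b transcript lay 13 bases from its end, too close for a full tag. Of all 43 members 36 had a full predicted tag. Uqcrc2, Cycs, Uqcrb, Uqcr10 and Atp5e, like Cox8b, had none, and Atp5o matched no transcript. The counts of these genes may therefore not reflect the levels of their transcripts. In 3 of the 36, Atp5g1, Atp5g2 and Atp5f1, the same letters occurred in another gene, so their counts are uncertain. Atp5g1 shared its letters with 20 genes.

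The muscle forms of complex IV had log2 fold changes of both signs. Cox6a2, the heart and skeletal muscle form of subunit 6a, had 165, 220 and 412 CPM (lowest, median, highest) in knockouts and 175, 255 and 503 CPM in controls, a log2 fold change of -0.23 ± 0.25 (edgeR adjusted p = 0.687). Without any single library this value ran between -0.40 (without knockout replicate 4) and -0.07 (without control replicate 1), and none passed. Cox6a1, its counterpart in most tissues, had 84.3, 131 and 139 CPM in knockouts and 67.3, 102 and 115 CPM in controls (log2 0.33 ± 0.15, edgeR adjusted p = 0.368). Cox6a2 therefore made up 66.3% ± 8.32 of the Cox6a tags in knockouts (54.4% to 79.3%) and 73.4% ± 9.16 in controls (61.8% to 85%). The log2 ratio of Cox6a2 to Cox6a1 was 1.01 ± 0.56 in knockouts and 1.53 ± 0.71 in controls, a difference of -0.53 ± 0.33 (SE). The groups overlapped, and the difference did not pass a two-sided exact permutation test (p = 0.138, adjusted p = 0.414 over 3 isoform pairs).

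Cox8b, the muscle form of subunit 8, had fewer tags than Cox8a in every library, but with no full predicted tag its count may not reflect the transcript's level, and the share of the forms is one of tags alone. It ran from 53.4 through 60.5 to 72.3 CPM in knockouts and from 36.7 through 43.8 to 59.8 CPM in controls, with a log2 fold change of 0.37 ± 0.12 (edgeR adjusted p = 0.148). All 7 knockouts stood above the control median. Cox8a, the form of most tissues, ran from 583 through 1329 to 1597 CPM in knockouts and from 427 through 1206 to 1480 CPM in controls, with the lowest value of each group in the library that stood apart (log2 0.14 ± 0.25, edgeR adjusted p = 0.812). Without knockout replicate 4 the log2 value was 0.26, without control replicate 7 it was 0.02 and without both 0.13. Cox8b made up 5.33% ± 1.87 of Cox8 tags in knockouts and 4.75% ± 2.31 in controls. The log2 ratio of Cox8b to Cox8a differed by 0.24 ± 0.31 (-4.22 ± 0.51 in knockouts and -4.46 ± 0.69 in controls, exact permutation p = 0.465, adjusted p = 0.698).

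Cox4i1, the common form of subunit 4, was the most abundant member, at 17824 ± 5169 CPM in knockouts and 14759 ± 3212 CPM in controls (log2 0.27 ± 0.20, edgeR adjusted p = 0.570). Knockout replicate 4 (8846 CPM) and control replicate 7 (8884 CPM) had the lowest Cox4i1 levels of their groups, and the log2 value was 0.39 without the knockout library, 0.19 without the control library and 0.30 without both. Cox4i2, the form best known from lung, stood at 3.76 ± 0.54 CPM in knockouts and 3.34 ± 0.94 CPM in controls, about 46.2 tags per library. The log2 ratio of Cox4i2 to Cox4i1 differed by -0.04 ± 0.33 (-12.10 ± 0.65 in knockouts and -12.06 ± 0.61 in controls, exact permutation p = 0.908, adjusted p = 0.908). None of the 3 pairs passed, which does not show that the ratios are alike.

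Cox7a1 is the muscle form of subunit 7a. Its counterpart Cox7a2 had no row under that symbol in the deposited counts, so no ratio was formed. The value of Cox7a1 rested on single libraries. Cox7a1 had 66.8, 79.9 and 388 CPM in knockouts and 53.4, 76.7 and 179 CPM in controls. The next highest values after knockout replicate 4 and control replicate 7 were 118 and 99.0 CPM. The log2 fold change of 0.59 ± 0.36 (edgeR adjusted p = 0.495) became 0.00 without knockout replicate 4 (0.999), 0.83 without control replicate 7 (0.151) and 0.23 without both (0.430). DESeq2 replaced the count of knockout replicate 4 as an outlier, 8146 by 1727 tags, and gave -0.02. Cox7a2l is a relative linked to respiratory supercomplexes. It stood at 30.4 ± 5.01 CPM in knockouts and 26.6 ± 3.66 CPM in controls (log2 0.19 ± 0.13, edgeR adjusted p = 0.525). Cox6b1, which binds on the side facing cytochrome c, stood at 2131 ± 469 CPM in knockouts and 1446 ± 351 CPM in controls (log2 0.56 ± 0.18, edgeR adjusted p = 0.135). Without both libraries that stood apart it passed (log2 0.66, edgeR adjusted p = 0.0384). The remaining complex IV genes have no muscle form among the members, and none passed. Cox7b ran from 5118 through 5396 to 7166 CPM in knockouts and from 2753 through 3928 to 5980 CPM in controls, with all 7 knockouts above the control median (log2 0.43 ± 0.16, edgeR adjusted p = 0.240). Cox6c stood at 6183 ± 994 CPM in knockouts and 4904 ± 787 CPM in controls (log2 0.33 ± 0.14, edgeR adjusted p = 0.305). Cox5a had its highest value of each group, 2115 CPM in knockouts and 1498 CPM in controls, in the libraries that stood apart (log2 0.56 ± 0.39, edgeR adjusted p = 0.537). Its log2 value was 0.18 without knockout replicate 4, 0.91 without control replicate 7 and 0.52 without both.

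**Figure D3:**
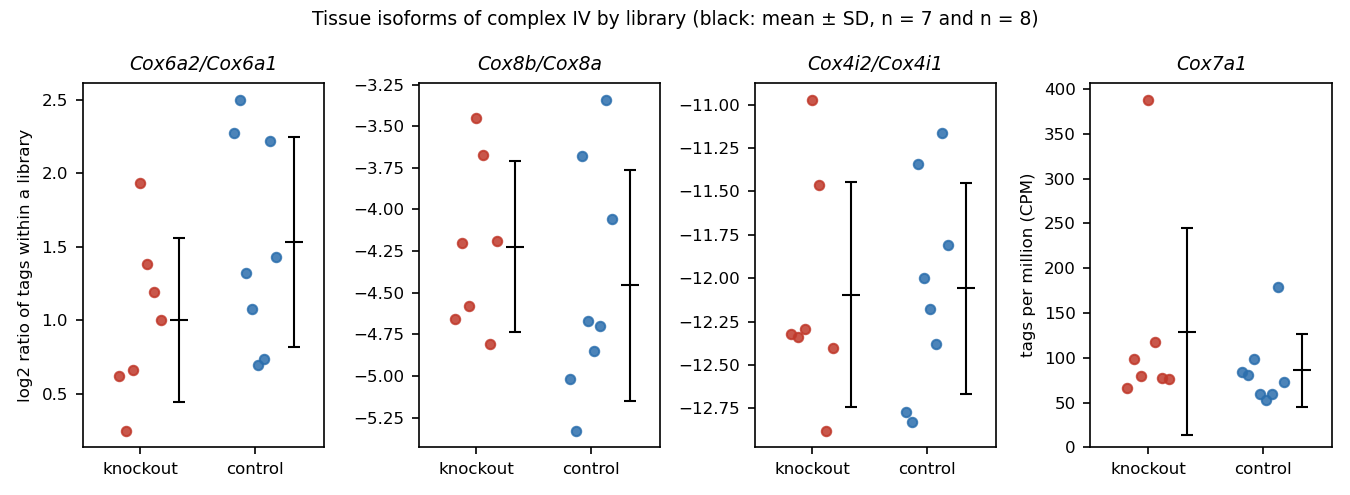
Log2 ratio of tags of the tissue form to the common form within each library for 3 isoform pairs of complex IV, and CPM of Cox7a1, with knockouts in red at the left, controls in blue at the right and the mean ± SD in black. The groups overlap in every panel, and knockout replicate 4 stands at 388 CPM in the Cox7a1 panel.

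In complex V, 14 of 17 genes had a positive log2 fold change (median 0.32), 7 were higher at an unadjusted p under 0.05, and none passed over all genes. Atp5a1 and Atp5b encode the alpha and beta subunits of the catalytic head. Atp5a1 had a lowest, median and highest level of 1322, 1638 and 1982 CPM in knockouts, against 1133, 1311 and 1514 CPM in controls. All 7 knockouts lay above the control median (log2 0.32 ± 0.11, edgeR adjusted p = 0.199), and DESeq2 called it (adjusted p = 0.0499). Atp5b had 1447, 2154 and 5347 CPM in knockouts and 1099, 1284 and 3073 CPM in controls, with both maxima in the libraries that stood apart (log2 0.68 ± 0.28, edgeR adjusted p = 0.294). It was 0.36 without knockout replicate 4 (0.589), 0.90 without control replicate 7 (0.0414) and 0.57 without both (0.0363).

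The genes of the c subunit, which forms the rotating ring, encode the same mature protein with different import sequences, and they differed in tag count. The predicted tags of Atp5g1 and Atp5g2 also occur in other genes, so the order of the counts need not be that of the transcripts. Atp5g1 stood at 3454 ± 1037 CPM in knockouts and 3370 ± 1041 CPM in controls (log2 0.04 ± 0.23), with no stable sign under other settings. Its log2 value was 0.13 without knockout replicate 4 and -0.08 without control replicate 7. Atp5g2, the ring gene with the fewest tags, stood at 351 ± 42.0 CPM in knockouts and 317 ± 23.6 CPM in controls (log2 0.15 ± 0.11). Atp5g3 had the largest fold change of complex V. It ran from 1169 through 1781 to 2655 CPM in knockouts and from 475 through 885 to 2409 CPM in controls, with control replicate 7 the highest control (log2 0.69 ± 0.31, edgeR adjusted p = 0.333). Without control replicate 7 its adjusted p was 0.0604 and without both libraries 0.0931.

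Atp5d, the delta subunit of the central stalk, was the most abundant gene of complex V by tags. It stood at 4213 ± 1249 CPM in knockouts and 4072 ± 1121 CPM in controls (log2 0.05 ± 0.22). The log2 value was 0.14 without knockout replicate 4, -0.05 without control replicate 7 and 0.03 without both. Atp5o, the stalk subunit that confers oligomycin sensitivity, had the lowest count of the complex, 69.9 tags per library, and the lowest fold change (-0.19 ± 0.29). Its sign turned without control replicate 7, where the log2 value was 0.10, and without both libraries that stood apart (0.05). The other 10 genes ranged from -0.07 (Atp5e) to 0.62 (Atp5k) in log2 fold change. Atp5j, the coupling factor 6 of the peripheral stalk, had 703 CPM at the median of knockouts, with 184.9 CPM in knockout replicate 4 and 680 to 788 CPM in the other knockouts, against 429 to 659 CPM in controls (log2 0.24 ± 0.23, edgeR adjusted p = 0.649). Without knockout replicate 4 its log2 value was 0.40 ± 0.12 (edgeR adjusted p = 0.137). Atp5j2, the f subunit of the membrane part, likewise had its lowest value, 58.2 CPM, in knockout replicate 4, against 171 to 279 CPM in the other knockouts and 117 to 236 CPM in controls (log2 0.01 ± 0.24, and 0.17 without that library). Atp5k, the e subunit of the membrane part, had both its highest and its lowest value among knockouts, 552 CPM in replicate 4 and 16.4 CPM in replicate 7, against 86.0 to 213 CPM in controls. Its log2 value of 0.62 was 0.11 without knockout replicate 4 and 0.24 without both libraries that stood apart. Atp5l, the g subunit beside it, ran from 1809 through 2399 to 2716 CPM in knockouts and from 1066 through 1454 to 2628 CPM in controls (log2 0.48 ± 0.19, edgeR adjusted p = 0.262). These genes were singled out after their values were seen. Among them Atp5sl, which matched a gene now named Dmac2, is known as a factor of complex I assembly and not as a subunit of the synthase (log2 -0.01 ± 0.15), and Atp5s is a coupling factor and not a core subunit (0.51 ± 0.19). Without these genes the median of complex V was also 0.32.

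Calls were made in complexes II and III. Complex II had 2 of 4 genes called higher, complex III 2 of 9, complex IV 0 of 12, complex V 0 of 17 and cytochrome c 0 of 1, with 1.67% of all genes called higher. At an unadjusted p under 0.05 the shares higher were 75.0%, 66.7%, 33.3% and 41.2% for complexes II, III, IV and V, where all genes gave 7.65%. The medians of log2 fold change were 0.48, 0.43, 0.33 and 0.32 in that order. Standard errors of single genes ran from 0.11 to 0.43, so the order of the medians is a description, and the difference between complexes was not tested. For each library the median over the members of log2 CPM minus the control mean was taken. In complex IV all knockouts (0.26 to 0.51) lay above all controls (-0.09 to 0.25). In complexes II (0.15 to 0.73 against -0.24 to 0.19), III (0.13 to 0.84 against -0.31 to 0.28) and V (0.07 to 0.55 against -0.32 to 0.52) the groups overlapped.

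**Figure D4:**
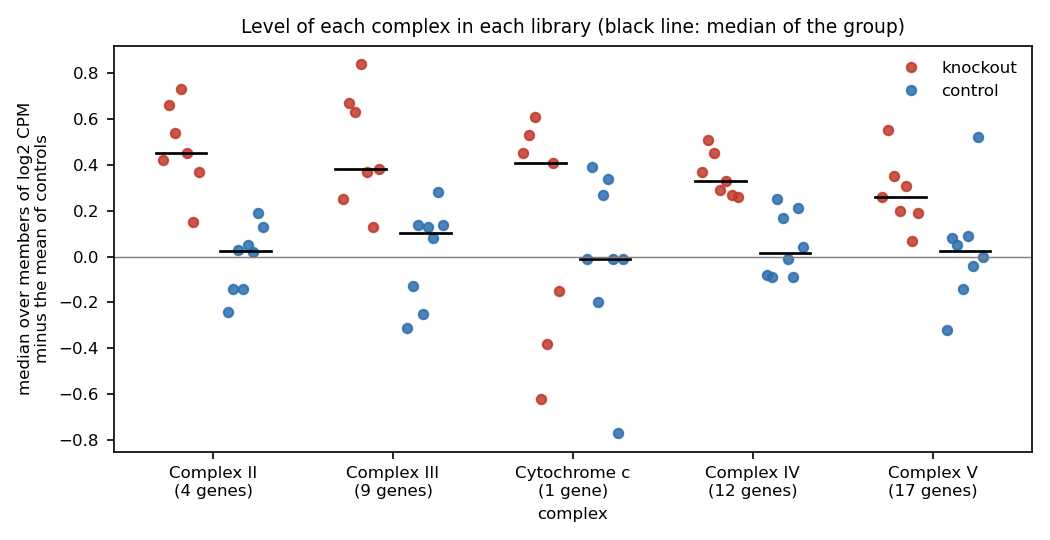
Median over the members of a complex of log2 CPM minus the mean of controls, 1 point per library, knockouts in red left of controls in blue, with a black line at each group's median. The group medians were 0.45 against 0.02 in complex II, 0.38 against 0.11 in complex III, 0.33 against 0.02 in complex IV and 0.26 against 0.03 in complex V.

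Summed tags gave a related view in which abundant genes weigh most. Complex II summed to 1389 ± 125 CPM in knockouts (1184 to 1560) and 1080 ± 63.0 CPM in controls (972 to 1165), and complex V to 19882 ± 1592 CPM in knockouts (17591 to 22069) and 16320 ± 733 CPM in controls (15362 to 17411), both without overlap. Complex III summed to 4218 ± 737 CPM in knockouts and 3159 ± 462 CPM in controls, and complex IV to 34607 ± 6366 CPM in knockouts and 27636 ± 3091 CPM in controls, both with overlap.

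Members, like all genes tested, differed in how they behaved in the libraries that stood apart. Each was set against the median of the other libraries of its group, in log2 CPM. Knockout replicate 4 was more than 0.5 higher in 10 members and more than 0.5 lower in 12. Of all 11062 genes tested, 2926 were higher and 2881 lower by that much. In control replicate 7 the counts were 15 and 9 members, and 2941 and 2665 of all genes. The median absolute deviation in knockout replicate 4 was 0.52 for members and 0.53 for all genes. In control replicate 7 it was 0.63 and 0.51. The sign was the same in both libraries for 36 of 43 members, and the deviations had a Pearson r of 0.74 across the 43 members (0.68 across all genes tested), which are not independent replicates and share these libraries. Uqcr11, Cox5a, Cox7a1, Uqcrb and Atp5b, singled out after their values were seen, were high in both (by 1.79, 1.70, 2.30, 1.79 and 1.43 in knockout replicate 4, and 1.91, 1.82, 1.3, 1.15 and 1.3 in control replicate 7). Cox8a, Cox4i1, Cycs and Atp5d were low in both (-1.26, -1.22, -1.04 and -0.98 in knockout replicate 4, and -1.60, -0.75, -0.76 and -1.22 in control replicate 7). Of the members called higher, Sdhd, Uqcrfs1 and Uqcrc2 deviated by 0.06 to 0.35 in both, and Sdhb by 0.19 in knockout replicate 4 and 0.86 in control replicate 7. The GC content of the predicted tag had a Pearson r of 0.21 with the deviation in knockout replicate 4 and -0.15 with that in control replicate 7 over 36 members, given as a description. With RLE scaling, library size alone, no low-count filter or voom 3 members were called higher (1.58%, 1.67%, 1.4% and 1.61% of all genes in that order). DESeq2 called 7 higher, namely Uqcrfs1, Sdha, Sdhb, Uqcrc2, Uqcrq, Sdhd and Atp5a1 (2.32% of all genes). Without both libraries 8 members were called higher (Sdhb, Uqcrfs1, Uqcrc2, Atp5b, Atp5h, Cox6b1, Sdhd and Sdha, 2.32% of all genes), and without control replicate 7 alone 10 were (2.84% of all genes). Without knockout replicate 2 the only member called was Uqcrfs1 (1.18% of all genes). With the replicate number as a block over replicates 1 to 7, 0 members were called (0.889% of all genes).

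**Figure D5:**
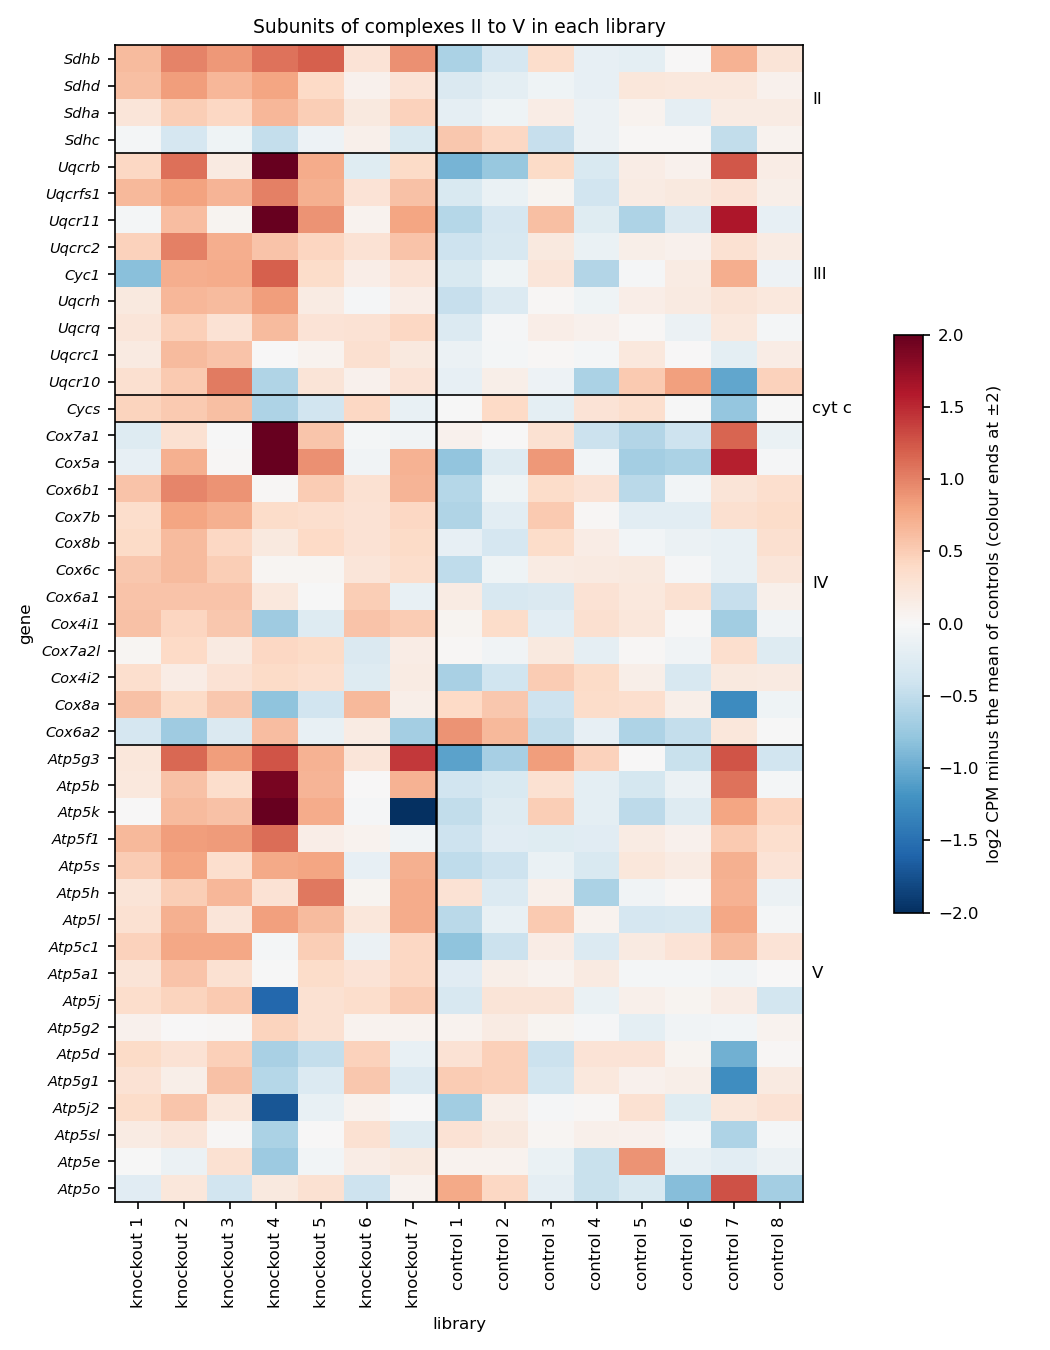
Log2 CPM minus the mean of controls for 43 members (rows, by complex) in 7 knockout and 8 control libraries (columns), red for higher and blue for lower, with the colour ending at 2 in either direction. Sdhb, Sdhd, Uqcrfs1 and Uqcrc2 are red across all knockouts, and knockout replicate 4 and control replicate 7 show stretches of dark red (Cox7a1, Cox5a, Uqcr11) and of blue (Cox8a, Atp5d).

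Lists of genes that build or neighbour these complexes were read beside the members. A list of assembly factors and associated proteins of complexes II to V had 31 tested genes. It also held Ndufa4 (log2 -0.07), Usmg5 (-0.27) and Atpif1 (0.41), which are not assembly factors. Of the 31 genes, 1 was called higher (3.23%, against 1.67% of all genes). A positive log2 fold change was found in 27 (87.1%, against 50.6% of all genes, median 0.28). The gene called was Atpaf1, a chaperone of the beta subunit of complex V, at 19.5 ± 7.77 CPM in knockouts and 11.2 ± 2.21 CPM in controls (log2 0.79 ± 0.20, edgeR adjusted p = 0.0420). Of 33 complex I subunits 0 passed by edgeR, 87.9% had a positive log2 fold change, 11 were higher and 0 lower at an unadjusted p under 0.05, and the median was 0.30. All 11 slow-twitch fibre markers had a positive log2 fold change (median 0.68) and 3 were called higher, namely the calcium pump Atp2a2 (0.84 ± 0.17), its inhibitor Pln (1.18 ± 0.26) and the calcium buffer Casq2 (0.80 ± 0.19, edgeR adjusted p = 0.00897, 0.0162 and 0.0351). At an unadjusted p under 0.05, 6 of the 11 were higher. The slow myosin genes did not pass. Their log2 values were 0.16 ± 0.32 for Myh7, 0.06 ± 0.23 for Myl3 and 0.82 ± 0.28 for Myl2 (edgeR adjusted p = 0.832, 0.910 and 0.180). The summed level of the slow-twitch markers was 2982 to 5031 CPM in knockouts and 1815 to 4496 CPM in controls. No marker of the list was at 0 in all libraries. All 10 markers of muscle fibres, mostly of the fast type, had a negative value (median -0.21), and the fast troponin Tnnt3 was called lower (-0.65 ± 0.13, edgeR adjusted p = 0.00629). Of 7 tested adipocyte markers Lep was called lower, and none of the endothelial, smooth muscle, macrophage, fibroblast, erythroid and Schwann cell markers was called by edgeR, while 3 smooth muscle and pericyte, 2 macrophage and 3 fibroblast markers were lower at an unadjusted p under 0.05. Summed fibroblast markers stood at 1231 to 3083 CPM in knockouts and 2176 to 3848 CPM in controls. The part of fibre type and of other cell types in the change of the respiratory subunits was not tested.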

How the data were processed

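Per the labels' protocols, 500 ng of Trizol-extracted RNA per sample went into barcoded SOLiD SAGE libraries. The authors deposited raw tag counts per gene symbol and a normalized table, whose signal values equal those counts divided by 1 factor per library (largest relative deviation 5.4e-10) and which served only for this check. Per the submitters' processing notes, the builds were mm10 and GRCm38.p1 and DESeq2 was used (version not given). How tags were aligned and counted is not given in the sources used here. Per the table itself, 360 blank lines hold no gene and were dropped.

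Differences in counts were tested by the quasi-likelihood method of edgeR 4.0.16 (R 4.3.3, TMM, filterByExpr with a minimum count of 10, group as the only term, Benjamini-Hochberg over 11062 genes). Log2 CPM used a prior count of 2. Standard errors are the log2 fold change over the square root of F. Depth was 8334436 to 19397255 tags per library. Isoform ratios were compared by exact permutation over 6435 splits. Alternatives were RLE scaling, library size alone, no filter, DESeq2 1.42.0, voom (limma 3.58.1), the replicate number as a block, each library left out, and a prior count of 0.5 for ratios. The edgeR step was tested on simulated data. The members, gene lists and the choice of the libraries left out together were made with earlier results of these data known. Named with values were Cpt1b, members called, complex IV tissue isoforms, the most abundant and extreme member of each complex, and a set of fixed core genes. Tags were predicted from GENCODE M21 transcripts, and promoters came from RefSeq (GRCm38.p6).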

Additional observations from a re-analysis of the deposited data

Results flagged for a closer look

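In 74 groups of libraries examined for a value far from the others (levels of Cpt1b and the 27 members named by rule, 3 isoform ratios and the per-library medians), 7 values stood apart, where chance flags about 1 in 20 groups. Knockout replicate 4 was far above the other knockouts for Atp5b (5347 CPM, next 2314), Cox7a1 (388 CPM, next 118) and Uqcrb (197 CPM, next 92.4). Control replicate 7 was far above the other controls for the same genes, with Atp5b at 3073 CPM (next 1765), Cox7a1 at 179 CPM (next 99.0) and Uqcrb at 102 CPM (next 56.2). Cox4i2 was lowest in knockout replicate 6, at 2.67 CPM (next 3.6).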

How the results depend on the processing

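The median log2 fold change of the 43 members stayed between 0.32 and 0.42 over the 22 other settings, and the medians of complexes II, III, IV and V stayed positive in each. The count of members called higher, 4, was 7 by DESeq2 (1 of them in complex V), 8 without both control replicate 7 and knockout replicate 4 (1 in complex IV, 2 in complex V) and 1 to 10 without any 1 library. Complex II had 1 call with RLE scaling, with library size alone, without the filter and by voom. Without any 1 library the calls were 0 to 3 in complex II, 1 to 3 in complex III, 0 in complex IV and 0 to 4 in complex V. Over all genes 240 calls became 455 by DESeq2, 403 without both libraries and 161 to 465 without any 1. Cpt1b passed by DESeq2 (-1.03, adjusted p = 0.0309), and by edgeR without both libraries (-0.94, adjusted p = 0.0432). By edgeR it also passed without control replicate 7 alone (-1.11, adjusted p = 0.0487). Without any 1 library its log2 value ranged from -1.20 to -0.86. With a replicate block over replicates 1 to 7, Sdhb (adjusted p = 0.0581), Uqcrfs1 (0.122), Uqcrc2 (0.178) and Sdhd (0.306) did not pass by edgeR, so 0 members were called (0 in complex II and 0 in complex III) and 117 of all genes, 0.889% of genes being called higher. Same-numbered libraries correlated between -0.45 and 0.31, and only knockout replicate 7 correlated best with its own number. The sources used here do not state that equal numbers pair mice, and these correlations cannot exclude it. Of 594 values of named members 542 kept direction and side of the threshold, 31 fell short, 8 newly passed and 13 turned sign. The sign turned for Cox7a1 by DESeq2 (-0.02), for Atp5g1 (0.00) and Atp5o (0.05) without both libraries, and without some 1 library for Atp5d (-0.05 to 0.14), Atp5g1 (-0.08 to 0.13) and Atp5o (-0.29 to 0.10). The ratio Cox4i2/Cox4i1 ranged from -0.23 to 0.09 without any 1 library, and the other ratios kept their sign. No isoform ratio passed in any setting. The causes were not tested. The lowest counts among the members were those of Cox4i2 and Atp5o.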
